A study of Homo sapiens with 6 samples.

Results

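The genes described here are the amino acid carriers of 7 solute carrier (SLC) families, measured by RNA-seq in H2122, a human lung cancer cell line, with and without SMARCA4. They were taken by symbol: every gene of the count tables whose name is SLC1A, SLC3A, SLC6A, SLC7A, SLC36A, SLC38A or SLC43A followed by a number, which gave 59 of 59050 symbols. The SLC6 family had 19 members, SLC7 had 13, SLC38 had 11, SLC1 had 7, SLC36 had 4, SLC43 had 3 and SLC3 had 2. The symbol rule also takes in the heavy chains of the SLC3 family, described below, and SLC6 carriers of neurotransmitters, taurine and creatine. The series compared 3 libraries of SMARCA4 knockout H2122 cells with 3 libraries of parental H2122 cells, which keep the SMARCA4 gene. All 6 libraries came from cells given vehicle and grown in RPMI medium with fetal bovine serum. A number in the title reads 1 for each of the 3 knockout libraries, and 1, 3 and 6 for parental replicates 1, 2 and 3. What it stands for, whether the knockout cells are a single clone, and whether the libraries of a group came from separate cultures are not given in the labels, so p-values here measure only the spread between these libraries, which may be technical.

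Amino acids do not cross membranes freely, and each carrier family moves its own subset of them. SLC7 light chains such as SLC7A5 and SLC7A11 reach the plasma membrane only when joined to a heavy chain, SLC3A2 (CD98) or SLC3A1, and most of them exchange an amino acid inside the cell for another outside. SLC1 and SLC38 carriers use the sodium gradient to take up glutamate, neutral amino acids and glutamine, and SLC6 carriers use sodium and chloride. Of the SLC36 family, SLC36A1 is coupled to protons and found largely on endosomes and lysosomes. Several of these genes are known targets of ATF4, the transcription factor made when cells lack amino acids, and the amino acids they import are sensed by the growth kinase complex mTORC1.

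SMARCA4, the catalytic subunit of the SWI/SNF chromatin remodelling complex and the targeted gene, had 20.7, 19.3 and 24.9 CPM (reads of the gene per 1000000 reads, after TMM scaling) in the knockout libraries, against 231.5, 214.5 and 335.0 CPM in the parental libraries. Its log2 fold change was -3.59 (SE 0.22, adjusted p = 0.000176, edgeR quasi-likelihood test with Benjamini-Hochberg adjustment). Reads assigned to genes came to 55120937 to 59917980 a library. The first principal component held 76.5% of the variance and separated the groups, and the second held 19.0% and set parental replicate 3 apart from all other libraries. For that reason results are also given without parental replicate 3. Of 8 epithelial carcinoma markers, 7 fell in knockout cells, and their summed level was 3177 to 3443 CPM in knockout libraries, against 7783 to 8219 CPM in parental libraries. Markers of blood cells summed to at most 0.729 CPM in knockout libraries and 1.88 CPM in parental libraries, with PTPRC at 0 in all, and lung lineage markers (NKX2-1, NAPSA, SFTPB, SFTPC and SCGB1A1) summed to at most 1.64 CPM in knockout libraries and 1.44 CPM in parental libraries. Summed endothelial markers stood at 0.908 to 1.40 CPM in knockout libraries, against 0.510 to 0.560 CPM in parental libraries. Fibroblast markers summed to 53.4 to 58.1 CPM in knockout libraries, against 39.3 to 110.1 CPM in parental libraries, and neuronal and astrocyte markers to 3.62 to 4.23 CPM in knockout libraries, against 0.201 to 0.368 CPM in parental libraries, with AQP4, SLC17A6 and SLC32A1 at 0 in all. By edgeR with all 6 libraries, 2 of 3 tested fibroblast markers rose and 1 fell, and 2 of 3 tested blood cell markers fell. Of 2 tested endothelial markers 1 rose, the 1 tested neuronal and astrocyte marker rose, and the 1 tested lung lineage marker did not pass. The part of these marker shifts in the carrier results was not tested. In a bulk library, fewer cells expressing a gene and less of its RNA per cell cannot be told apart.

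Of the 59 carriers, 28 had enough reads to be tested. In knockout cells 4 of them rose (SLC7A5, SLC36A4, SLC1A1 and SLC43A1), 3 fell (SLC7A7, SLC7A8 and SLC1A3) and 21 did not pass an adjusted p of 0.05. The called members were 25.0% of those tested, beside 27.6% over all 17809 genes tested, of which 13.3% rose and 14.3% fell. The median log2 fold change was 0.25 over the tested members and 0.02 over all genes. The CPM values of the groups did not overlap for 18 members, 12 with knockout above and 6 with knockout below parental, beside 27.0% and 22.8% of all genes (49.8% in either direction). Without parental replicate 3, 15 members rose, 10 fell and 5 did not pass among 30 tested, which is 83.3% beside 61.6% over all genes, and the median log2 fold change was 0.14 over the members and 0.04 over all genes. All 7 members called with 6 libraries kept their calls there.

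**Figure D1:**
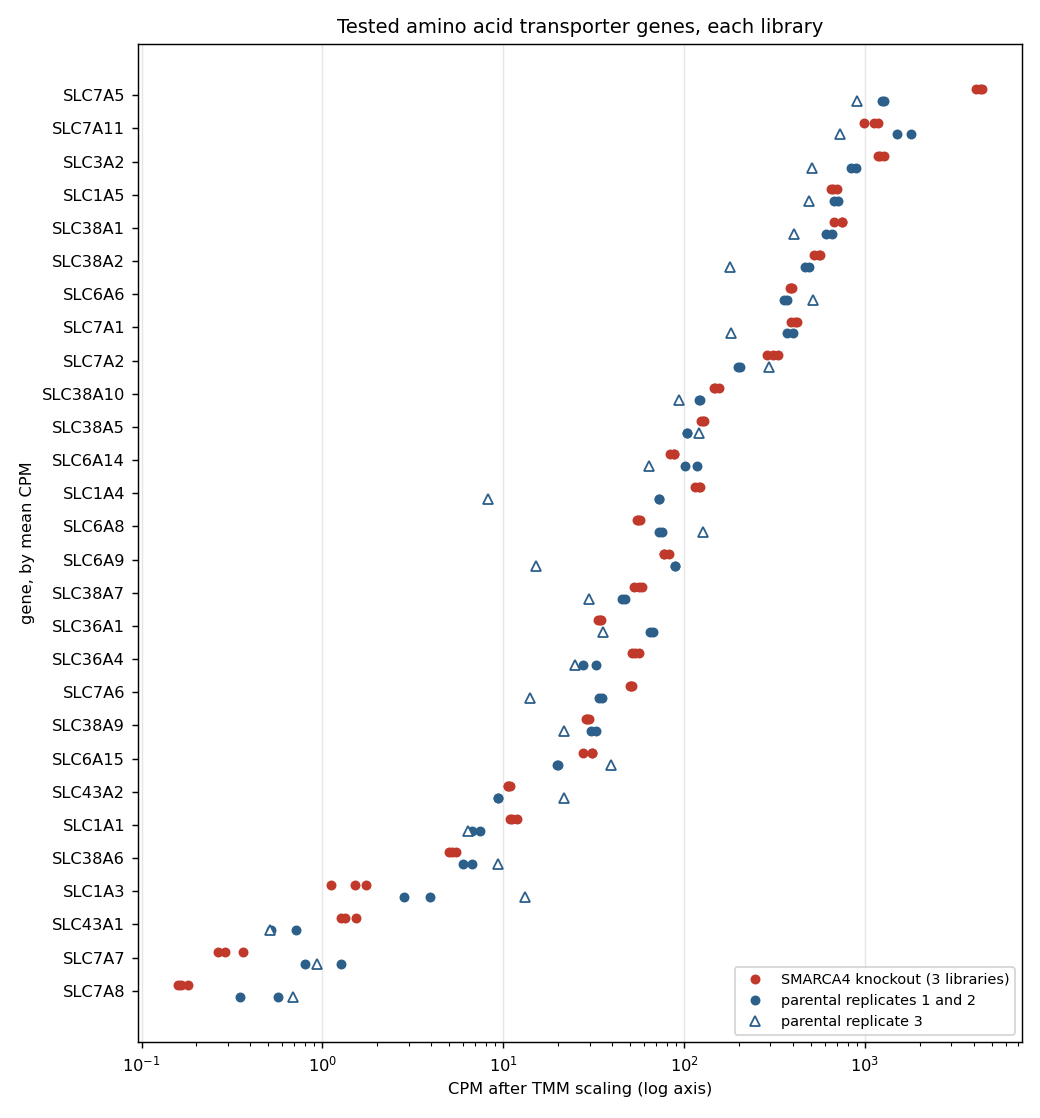
CPM of the 28 tested carriers in each library on a log axis, with the 3 SMARCA4 knockout libraries as points just above the parental ones (points for replicates 1 and 2, a triangle for replicate 3). SLC7A5 stands at 4127 to 4444 CPM in knockout libraries and 902 to 1270 CPM in parental libraries, and parental replicate 3 is far below the other libraries for SLC1A4 and SLC6A9.

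Of all tested members, the largest rise was that of SLC7A5 (LAT1), the light chain that exchanges leucine, other branched-chain and aromatic amino acids for intracellular glutamine. SLC7A5 lies on the minus strand of chromosome 16 from 87830023 to 87869488 (GRCh38, GENCODE 29). It had 4444, 4299 and 4127 CPM in knockout libraries, against 1270.1, 1237 and 902 CPM in parental libraries. Every knockout library was more than 3 times above every parental library. The log2 fold change was 1.92 (SE 0.17, adjusted p = 0.000596), a 3.77-fold difference, and without parental replicate 3 it was 1.73 (SE 0.05, adjusted p = 1.29e-11). It passed the threshold in all 13 alternatives tried, with adjusted p at most 0.0063. The RefSeq window from 250 bases before to 50 bases after its start (GRCh38.p14, chr16:87869458-87869757, minus strand) is printed because SLC7A5 is the member whose CPM changed most. Capitals mark an E-box (CACGTG), the letters bound by the MYC and TFE families among others, and a core antioxidant response element (TGACNNNGC), both searched on both strands.
SLC7A5: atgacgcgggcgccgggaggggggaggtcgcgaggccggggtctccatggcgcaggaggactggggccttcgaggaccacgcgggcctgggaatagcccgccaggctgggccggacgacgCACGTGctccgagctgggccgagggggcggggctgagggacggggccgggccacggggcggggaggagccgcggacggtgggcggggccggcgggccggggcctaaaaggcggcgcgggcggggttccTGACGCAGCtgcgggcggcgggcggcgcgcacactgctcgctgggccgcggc

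SLC3A2, the heavy chain CD98 that SLC7A5 and several other SLC7 light chains need to reach the membrane, lies on the plus strand of chromosome 11 from 62856102 to 62888875. SLC3A2 had 1278, 1210.5 and 1176 CPM in knockout libraries, against 836, 889 and 508 CPM in parental libraries. The groups did not overlap, and parental replicate 3 was the lowest library. Its log2 fold change of 0.71 (SE 0.22) did not pass the edgeR test with all 6 libraries (adjusted p = 0.0601), but passed by DESeq2 (log2 fold change 0.66, adjusted p = 0.0364) and without parental replicate 3, where it was 0.45 (SE 0.05, adjusted p = 4.3e-06). The number of SLC7A5 reads per SLC3A2 read, a ratio chosen after the values were seen, was 3.48, 3.55 and 3.51 in knockout libraries, against 1.52, 1.39 and 1.78 in parental libraries. The knockout libraries were close together and all above the parental ones, a 2.25-fold difference of the means (exact permutation test, two-sided, p = 0.1, the smallest that 3 against 3 libraries can give). The other heavy chain, SLC3A1, which pairs with the kidney carrier SLC7A9, had 10, 0 and 1 reads in knockout libraries and 2, 2 and 5 in parental libraries and was not tested.

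The SLC7A5 to SLC3A2 read ratio has no length correction and does not give the proportion of their transcripts. Since carriers differ in transcript length, other comparisons of level between them used CPM per kilobase of annotated exon sequence. Summed over all 59 members, that level was 1965, 1911 and 1821 in knockout libraries, against 1234, 1178 and 813 in parental libraries. SLC7A5 made up 47.6%, 47.4% and 47.8% of the sum in knockout libraries, against 21.7%, 22.1% and 23.4% in parental libraries. The mean shares of SLC7A5 were 47.6% ± 0.178 in knockout and 22.4% ± 0.875 in parental libraries (SD, n = 3 each, exact permutation p = 0.1, the smallest possible). SLC7A5 was the most abundant member per kilobase of exon union in both groups. With the longest transcript as length it still led in knockout libraries (945.6, beside 549.7 for SLC3A2), while in parental libraries SLC3A2 led (334.9, beside 250.5 for SLC7A5). The share of SLC3A2 was 12.4% ± 0.167 in knockout and 13.2% ± 1.26 in parental libraries, and its groups overlapped (exact permutation p = 0.4). SLC1A5 and SLC7A11 took smaller shares in knockout libraries, 10.6% ± 0.152 and 5.97% ± 0.426, against 17.5% ± 0.526 and 12.5% ± 2.97 in parental libraries, and neither pair of groups overlapped (exact permutation p = 0.1 for each). Shares add up to a fixed total, so a larger share of SLC7A5 lowers the others without any change in their own level. By family, SLC7 held 58.5% to 59.1% of the sum in knockout libraries, against 40.3% to 43.4% in parental libraries. The 10 most abundant members held 93.6% to 93.8% in knockout libraries and 89.9% to 90.4% in parental libraries.

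**Figure D2:**
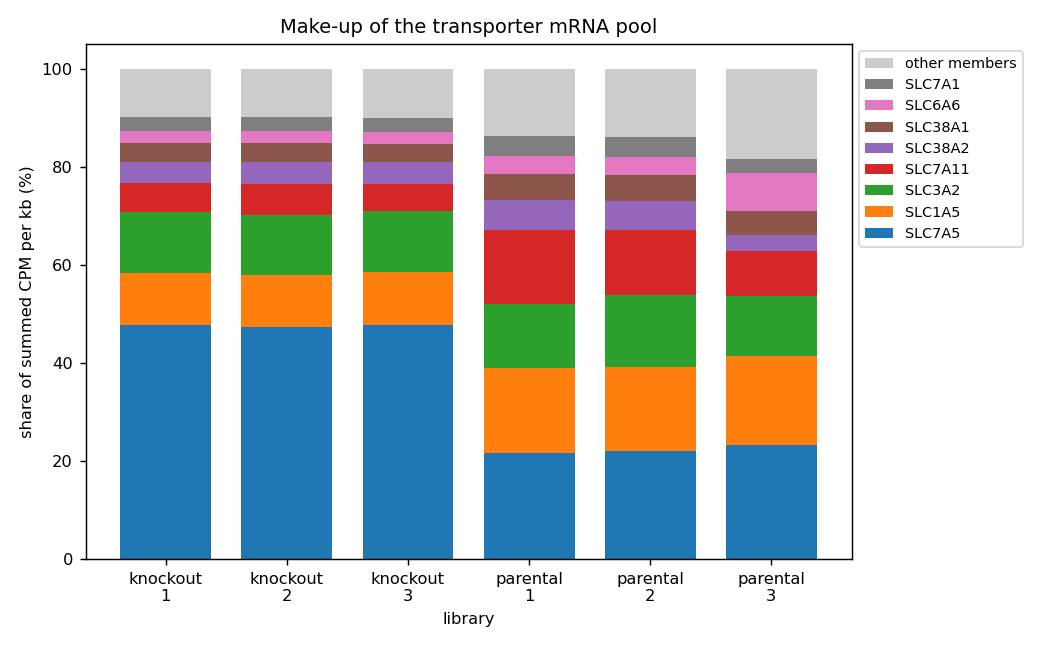
Stacked shares of the most abundant carriers, and of the other members together in grey, in the summed CPM per kilobase of all 59 members, in percent, for the 3 SMARCA4 knockout libraries and then the 3 parental libraries. SLC7A5 takes 47.4% to 47.8% in knockout libraries and 21.7% to 23.4% in parental libraries.

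Among the other light chains that pair with SLC3A2, none rose with all 6 libraries by edgeR, DESeq2 or limma-voom, and 1 did at an unadjusted p under 0.05. SLC7A11 (xCT), the cystine-glutamate exchanger that supplies cysteine for glutathione, had 1118, 1186 and 982 CPM in knockout libraries, against 1792, 1501 and 725 CPM in parental libraries. Knockout lay below parental replicates 1 and 2 and above parental replicate 3. Its log2 fold change was -0.29 (SE 0.33, adjusted p = 0.558) with all libraries, while without parental replicate 3 it fell by 0.64 (SE 0.09, adjusted p = 0.000741). SLC7A6, an exchanger of cationic and neutral amino acids, had 51.5, 50.4 and 51.0 CPM in knockout libraries, against 33.7, 35.3 and 14.1 CPM in parental libraries. Those groups did not overlap, and the log2 fold change was 0.88 (adjusted p = 0.106) with all libraries and 0.51 (adjusted p = 3.01e-06) without parental replicate 3. Of the exon bases of SLC7A6, 55.6% are shared with other annotated genes, antisense SLC7A6OS among them. Whether the counting used strand is not given in the sources used here, so its reads and those of SLC7A6OS may not be separate.

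Other SLC3A2 partners were scarce, and both that could be tested fell in knockout cells. SLC7A7, which exports cationic amino acids in exchange for neutral ones and is known from epithelia and macrophages, had 0.265, 0.290 and 0.364 CPM in knockout libraries, against 0.806, 1.27 and 0.932 CPM in parental libraries. SLC7A8 (LAT2), a carrier of small and large neutral amino acids, had 0.159, 0.182 and 0.166 CPM in knockout libraries, against 0.350, 0.569 and 0.686 CPM in parental libraries. Groups did not overlap for either gene. SLC7A7 fell by 1.70 on the log2 scale (SE 0.27, adjusted p = 0.00566), and SLC7A8 fell by 1.65 (SE 0.33, adjusted p = 0.0129). Without parental replicate 3 they fell by 1.80 (adjusted p = 0.000172) and 1.49 (adjusted p = 0.00341). For SLC7A8 the call was lost when any single knockout library was left out, with adjusted p up to 0.0656. Both genes lie on the minus strand of chromosome 14, SLC7A7 from 22773222 to 22829820 and SLC7A8 from 23125295 to 23183674. SLC7A10, another SLC3A2 partner, was not tested and had at most 3 reads in any library.

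The tested cationic carriers of the SLC7 family, which need no heavy chain, did not pass with all libraries by edgeR, DESeq2 or limma-voom, and neither had an unadjusted p under 0.05. SLC7A1, the general importer of arginine and lysine, had 422, 410.0 and 389 CPM in knockout libraries, against 399.9, 370.4 and 181 CPM in parental libraries. Its groups overlapped (log2 fold change 0.36, adjusted p = 0.416), and without parental replicate 3 the log2 fold change was 0.03 (adjusted p = 0.58). SLC7A2, an arginine importer known for its induction in inflammation, had 328, 310.3 and 288 CPM in knockout libraries, against 198, 204 and 293 CPM in parental libraries. Here parental replicate 3 was the high parental library and lay inside the knockout range. The log2 fold change of SLC7A2 was 0.41 (adjusted p = 0.142) with all libraries and 0.57 (SE 0.05, adjusted p = 9.34e-07) without parental replicate 3.

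Of the SLC1 family, both tested glutamate carriers changed and the neutral carriers did not pass with all libraries. SLC1A1 (EAAT3), a sodium-driven importer of glutamate, aspartate and cysteine on chromosome 9 (4490444 to 4587469, plus strand), had 11.9, 11.1 and 10.9 CPM in knockout libraries, against 7.39, 6.73 and 6.35 CPM in parental libraries. SLC1A1 rose by 0.73 on the log2 scale (SE 0.13, adjusted p = 0.00773), a 1.66-fold difference with no overlap, and by 0.63 (adjusted p = 3.73e-05) without parental replicate 3. SLC1A3 (EAAT1), a glutamate and aspartate importer known chiefly from astrocytes, lies on chromosome 5 (36606355 to 36688334, plus strand) and had 1.75, 1.51 and 1.11 CPM in knockout libraries, against 3.94, 2.81 and 13.2 CPM in parental libraries. SLC1A3 fell by 2.19 (SE 0.63, adjusted p = 0.0452), and without the high parental replicate 3 it fell by 1.26 (SE 0.20, adjusted p = 0.00018). The call on SLC1A3 was lost without any single knockout library (adjusted p 0.12 to 0.159), without parental replicate 1 (0.0545), with limma-voom (0.0797) and with a filter of 1 CPM in 3 libraries (0.0504). With replicate numbers as a block its adjusted p was 0.13. SLC1A2, the other main astrocyte glutamate importer, was not tested and had 14, 5 and 6 reads in knockout libraries and 2, 2 and 3 in parental libraries.

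SLC1A5 (ASCT2), the exchanger through which many tumour cells take up glutamine, had 696, 664 and 651 CPM in knockout libraries, against 711, 672 and 491 CPM in parental libraries. The groups overlapped, and the log2 fold change was 0.10 (SE 0.16, adjusted p = 0.687) with all libraries and -0.09 (SE 0.04, adjusted p = 0.0791) without parental replicate 3. Of its exon bases, 23.8% are shared with other annotated genes. SLC1A4 (ASCT1), an exchanger of alanine, serine and cysteine, had 123, 121 and 115 CPM in knockout libraries, against 72.6, 72.1 and 8.2 CPM in parental libraries. Each knockout library was above each parental library, and parental replicate 3 was far below the other 2. The log2 fold change of SLC1A4 was 1.23 with an SE of 0.72 (adjusted p = 0.263), and 0.67 with an SE of 0.04 (adjusted p = 6.15e-08) without parental replicate 3.

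The SLC38 family, sodium-coupled carriers of glutamine and other neutral amino acids, had 7 tested members, and none passed the edgeR test with all 6 libraries. At an unadjusted p under 0.05, 1 was higher and 1 lower in knockout cells, and DESeq2 called 1 lower and limma-voom 0. SLC38A1, a glutamine importer of the plasma membrane, had 748, 741 and 670.1 CPM in knockout libraries, against 655, 605 and 403 CPM in parental libraries. SLC38A2, a glutamine and alanine importer that cells induce when amino acids run short, had 555, 559.8 and 525 CPM in knockout libraries, against 492, 468 and 178 CPM in parental libraries. Neither pair of groups overlapped. The log2 fold change of SLC38A1 was 0.38 (adjusted p = 0.219) and 0.14 (adjusted p = 0.0288) without parental replicate 3, and that of SLC38A2 was 0.53 (adjusted p = 0.346) and 0.14 (adjusted p = 0.0142). SLC38A10, whose substrates include glutamine, had a log2 fold change of 0.42 (adjusted p = 0.0582), with 147 to 156 CPM in knockout libraries, against 94.0 to 122 CPM in parental libraries, and without parental replicate 3 it was 0.26 (adjusted p = 0.000214). SLC38A5, a carrier of glutamine, asparagine and glycine, and SLC38A7, a glutamine carrier of the lysosome, had log2 fold changes of 0.22 (adjusted p = 0.177) and 0.45 (adjusted p = 0.130), and of 0.25 (adjusted p = 0.00024) and 0.22 (adjusted p = 0.00466) without parental replicate 3. SLC38A9, the lysosomal arginine sensor of mTORC1, had 29.9, 28.8 and 29.2 CPM in knockout libraries, against 32.7, 30.7 and 21.8 CPM in parental libraries. Its log2 fold change was 0.05 (adjusted p = 0.869) with all libraries and turned to -0.16 (adjusted p = 0.0234) without parental replicate 3. SLC38A6 had a log2 fold change of -0.49 (adjusted p = 0.126), with knockout below parental in every library, and passed by DESeq2 (adjusted p = 0.0477) and without parental replicate 3 (-0.32, adjusted p = 0.0155).

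In the SLC36 family, SLC36A4, a high-affinity carrier of proline and tryptophan, rose. It lies on the minus strand of chromosome 11 from 93144171 to 93197964 and had 53.5, 56.0 and 51.6 CPM in knockout libraries, against 32.4, 27.6 and 24.9 CPM in parental libraries. The groups were well apart, with a log2 fold change of 0.92 (SE 0.13, adjusted p = 0.0031), a 1.90-fold difference, and 0.79 (adjusted p = 6.52e-07) without parental replicate 3. SLC36A1 (PAT1), a proton-coupled exporter of small amino acids from lysosomes, had 34.2, 33.5 and 34.5 CPM in knockout libraries, against 64.9, 67.6 and 35.7 CPM in parental libraries. The lowest parental library, replicate 3, was just above the knockout libraries. The log2 fold change of SLC36A1 was -0.72 (SE 0.25, adjusted p = 0.0771) and passed by DESeq2 (adjusted p = 0.0255). Without parental replicate 3 it fell by 1.01 (SE 0.05, adjusted p = 4.5e-09).

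SLC43A1 (LAT3), a sodium-independent carrier of branched-chain amino acids that works without a heavy chain, rose at a low level. SLC43A1 is on the minus strand of chromosome 11 (57484534 to 57515786) and had 1.33, 1.27 and 1.52 CPM in knockout libraries, against 0.718, 0.519 and 0.510 CPM in parental libraries. Its log2 fold change was 1.24 (SE 0.22, adjusted p = 0.00861), a 2.35-fold difference with no overlap, and 1.11 (adjusted p = 0.000964) without parental replicate 3. SLC43A2 (LAT4), its close relative, had 10.7, 10.9 and 10.6 CPM in knockout libraries, against 9.40, 9.39 and 21.7 CPM in parental libraries. The knockout libraries of SLC43A2 lay between parental replicates 1 and 2 and parental replicate 3, with a log2 fold change of -0.33 (adjusted p = 0.533) and 0.14 (adjusted p = 0.122) without that library.

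Of the 19 SLC6 members 5 were tested, and none passed the edgeR test with all 6 libraries. SLC6A8 had an unadjusted p under 0.05, and DESeq2 called it alone and limma-voom called 0. SLC6A6, the taurine importer, had the highest per-length level of the family and 396, 391 and 384 CPM in knockout libraries, against 372, 357 and 513 CPM in parental libraries (log2 fold change -0.09, adjusted p = 0.738, and 0.05, adjusted p = 0.307, without parental replicate 3). SLC6A8, the creatine importer, had 57.1, 54.7 and 55.5 CPM in knockout libraries, against 75.5, 72.9 and 127 CPM in parental libraries. Its groups did not overlap, and the log2 fold change of -0.72 (SE 0.23, adjusted p = 0.0632) passed with median-ratio scaling (adjusted p = 0.0468), with no low-count filter (0.034), by DESeq2 (0.0121) and without parental replicate 3 (-0.46, adjusted p = 3.07e-06). SLC6A9 (GLYT1), a glycine importer, had 81.9, 77.0 and 76.9 CPM in knockout libraries, against 88.9, 88.8 and 15.1 CPM in parental libraries. Parental replicate 3 was far below all other libraries, and the log2 fold change of SLC6A9 was 0.29 (SE 0.60, adjusted p = 0.760) with it and -0.23 (SE 0.05, adjusted p = 0.000919) without it. SLC6A14, a broad carrier of neutral and cationic amino acids, and SLC6A15, a carrier of branched-chain amino acids and proline, had log2 fold changes of -0.14 (adjusted p = 0.690) and 0.17 (adjusted p = 0.694). Without parental replicate 3 these were -0.40 (adjusted p = 8.36e-05) and 0.53 (adjusted p = 1.31e-05).

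**Figure D3:**
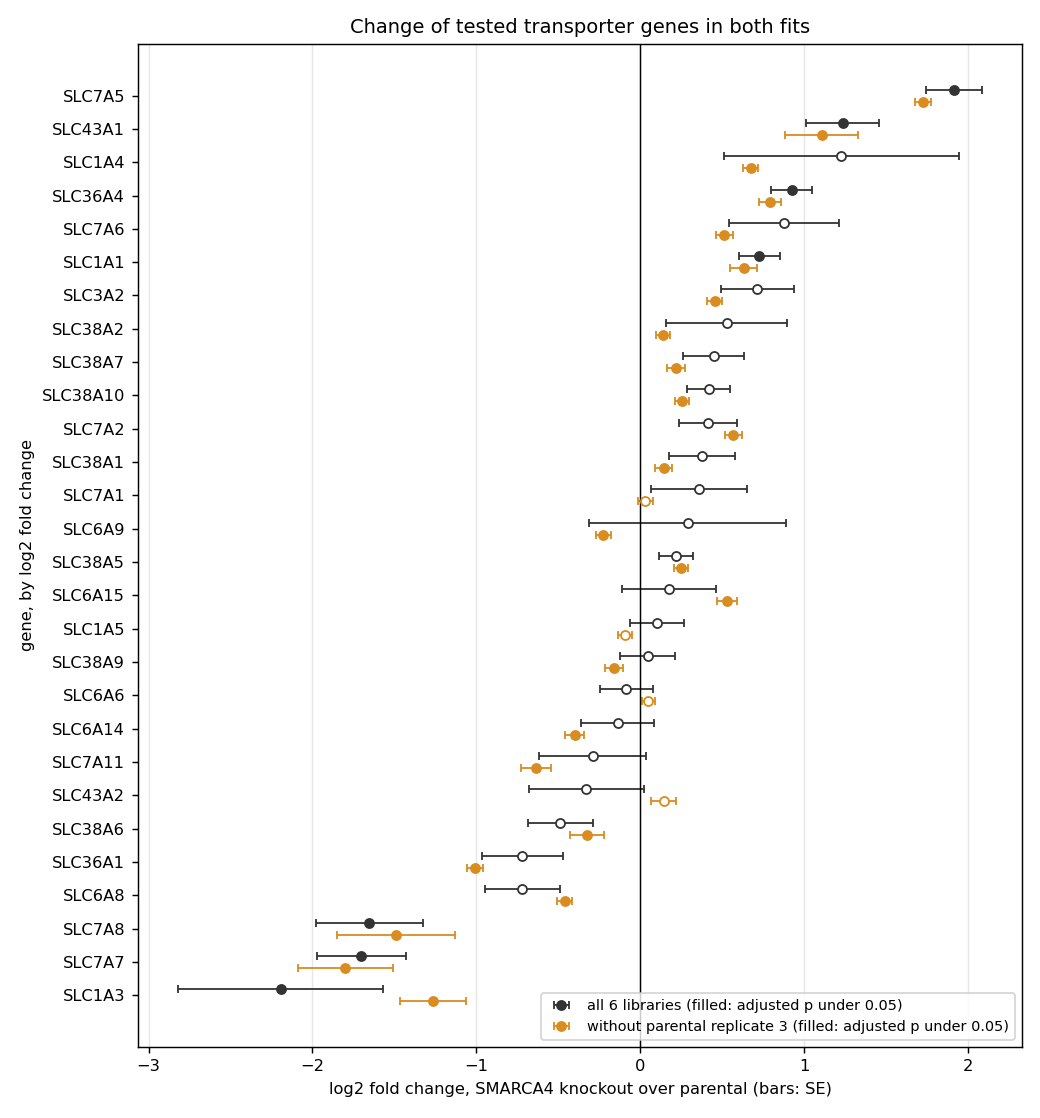
Log2 fold change of SMARCA4 knockout over parental for the 28 tested carriers, with bars of 1 standard error, with all 6 libraries and without parental replicate 3. SLC7A5 lies at 1.92 and 1.73. The errors of SLC1A4 and SLC6A9 are 0.72 and 0.60 with all libraries, and 0.04 and 0.05 without that library.

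The other 31 members were too scarce to test, with at most 14 reads in any library, and 16 of them had at most 3 reads in every library. SLC1A6, SLC1A7, SLC6A18, SLC7A3, SLC7A13 and SLC38A11 had 0 reads in all 6 libraries, a count that allows up to 3 reads, or 0.0497 to 0.0545 CPM per library (counting error only). SLC6A16, whose substrate is not established, had 6, 14 and 13 reads in knockout libraries, against 1, 2 and 0 in parental libraries. SLC6A7, a proline importer of the brain, had 0, 3 and 0 reads in knockout libraries, against 8, 14 and 7 in parental libraries. Both were called when the low-count filter was dropped, and SLC6A16 was also called without parental replicate 3 (log2 fold change 2.76, adjusted p = 0.00586). SLC7A9, the kidney light chain, had 12, 8 and 7 reads in knockout libraries, against 5, 2 and 1 in parental libraries.

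Parental replicate 3 stood apart for many carriers. It was below both other parental libraries for 18 of the 28 tested members (64.3%) and above both for 9 (32.1%), beside 45.4% and 45.7% of all genes tested. It was at or below 0.5 of the mean of the other 2 for 6 members (21.4%), beside 12.6% of all genes: SLC1A4, SLC6A9, SLC38A2, SLC7A1, SLC7A6 and SLC7A11. For 7 members, with no share over all genes computed, the knockout libraries lay between parental replicate 3 and the other parental libraries. Of these, SLC7A11, SLC6A9, SLC6A14 and SLC38A9 were below parental replicates 1 and 2 in knockout libraries and above replicate 3, and SLC6A6, SLC6A15 and SLC43A2 were the other way round. Among 21 tested genes of the ATF4 amino acid response, 10 (47.6%) were at or below 0.5 of that mean in parental replicate 3. Of that list, 14 genes were below both other parental libraries there and 5 were above both. The other 7 lists had 0% to 18.8% of their genes at or below 0.5 of the mean. At 2 times the mean or more were 7.14% of the carriers and 0% of the ATF4 list, beside 11.0% of all genes, 31.2% of the serine, glycine and folate list, 28.6% of the other amino acid carriers and 23.5% of the cystine list. For branched-chain and aromatic breakdown, 76.2% of genes were above both other parental libraries. The labels give no difference between the parental libraries other than the number in the title, and the part of that number in these values was not tested.

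RefSeq windows around the transcription start were matched by symbol for 44 of the 59 members, 66 windows in all, and searched on both strands for 4 motifs. The letters TGATGNAA, an approximation of the composite element that ATF4 binds with its partners, were in 6 member windows (9.09%), beside 3.62% of all 35116 windows. The core antioxidant response element TGACNNNGC was in 7 member windows (10.6%, beside 13.3% of all), the E-box CACGTG in 10 (15.2%, beside 7.26%) and the AP-1 motif TGANTCA in 11 (16.7%, beside 7.71%). The 6 members with the ATF4 letters were SLC1A3, SLC1A4, SLC1A5, SLC3A2, SLC7A1 and SLC38A1. A match is a description and not a binding site, and no binding was measured. Stretches of 5 of these windows (GRCh38.p14), those of carriers with a mean above 50 CPM in both groups, are printed to show where the letters lie. The windows of SLC3A2, SLC1A4, SLC1A5 and SLC38A1 are at starts inside the annotated span of the gene. Another SLC1A5 window (chr19:46787244-46787543) held an E-box and an antioxidant core but not the ATF4 letters. The ATF4 letters are in capitals on either strand and, in SLC3A2, also the AP-1 letters, which overlap an antioxidant core there. The stretches are from SLC3A2 (chr11:62881649-62881748, plus strand), SLC1A4 (chr2:64989366-64989425, plus), SLC1A5 (chr19:46784878-46784937, minus), SLC7A1 (chr13:29595648-29595707, minus) and SLC38A1 (chr12:46266487-46266546, minus).
SLC3A2: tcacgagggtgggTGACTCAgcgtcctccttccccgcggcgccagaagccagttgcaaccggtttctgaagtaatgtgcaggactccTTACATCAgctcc
SLC1A4: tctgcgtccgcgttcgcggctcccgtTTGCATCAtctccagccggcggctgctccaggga
SLC1A5: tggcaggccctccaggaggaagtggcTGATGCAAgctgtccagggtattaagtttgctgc
SLC7A1: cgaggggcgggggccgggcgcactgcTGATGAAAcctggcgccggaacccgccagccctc
SLC38A1: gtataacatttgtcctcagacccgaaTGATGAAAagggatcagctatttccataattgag

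The 5 carriers with printed stretches had log2 fold changes of 0.71 for SLC3A2, 1.23 for SLC1A4, 0.10 for SLC1A5, 0.36 for SLC7A1 and 0.38 for SLC38A1. By edgeR none of them passed with all 6 libraries, while SLC3A2 passed by DESeq2. Of the 6 members with the ATF4 letters, these 5 were lower in parental replicate 3 than in the other parental libraries, and SLC1A3 was higher. Below both other parental libraries there were 64.3% of tested members and 45.4% of all genes tested. The part of the letters in these values was not tested. SLC1A3, the other member with the ATF4 letters, was left out of the printed stretches by its level. It fell with all 6 libraries (edgeR adjusted p = 0.0452). Its parental replicate 3 was the higher one, at 13.2 CPM against 3.94 and 2.81 CPM in parental replicates 1 and 2. In SLC1A4 the ATF4 letters begin 7 bases before the start, and in SLC7A1 they begin 7 bases after it.

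The carriers were set beside 8 lists of related genes, each read against the 13.3% of all genes that rose and the 14.3% that fell with all 6 libraries, and against 30.8% in each direction without parental replicate 3. Of the ATF4 amino acid response, 3 of 21 tested genes rose and none fell by edgeR, with a median log2 fold change of 0.05. No gene of that list was lower at an unadjusted p under 0.05, while DESeq2 called 3 lower and limma-voom 0. The genes that rose were NUPR1, a small stress-induced chromatin protein, with 3.57, 3.39 and 3.40 CPM in knockout libraries, against 0.228, 0.101 and 0.0352 CPM in parental libraries (log2 fold change 4.81, adjusted p = 0.00116), the stress cytokine GDF15 (0.70, adjusted p = 0.00321) and the transcription factor CEBPB (0.68, adjusted p = 0.0239). Without parental replicate 3, 5 genes of the list rose and 13 fell. Of the genes through which mTORC1 senses amino acids, 4 of 40 rose and 2 fell (19 and 9 without that library). CASTOR1, a cytosolic arginine sensor, rose by 2.32 (adjusted p = 0.0209, at under 0.5 CPM in each library), and the GATOR2 subunit MIOS and the sestrin SESN3 fell by 0.53 (adjusted p = 0.00619) and 0.94 (adjusted p = 0.017).

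A list of carriers of other families, mostly of amino acids and peptides, counted 4 that rose and 2 that fell among 21 tested (9 and 7 without parental replicate 3). MFSD12, which carries cysteine into lysosomes and melanosomes, had 281, 268 and 281.5 CPM in knockout libraries, against 60.5, 58.8 and 59.8 CPM in parental libraries, a log2 fold change of 2.21 (SE 0.09, adjusted p = 4.34e-05). SLC15A1, the intestinal peptide importer, fell by 3.21 (adjusted p = 0.000198) and SLC29A3, which is on the list but is known as a lysosomal carrier of nucleosides, fell by 0.72 (adjusted p = 0.0168). Of 28 enzymes of glutamine, glutamate and aspartate, 2 rose and 4 fell (7 and 12 without parental replicate 3), with a median log2 fold change of -0.31. GFPT2, which uses glutamine to make hexosamine, had 65.3, 62.3 and 67.1 CPM in knockout libraries, against 4.08, 3.45 and 3.38 CPM in parental libraries (log2 fold change 4.16, SE 0.13, adjusted p = 1.78e-05). ABAT, which breaks down GABA, fell by 2.48 (adjusted p = 0.000383) and GLS2, a glutaminase, fell by 1.88 (adjusted p = 0.00429).

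Of 16 enzymes of serine, glycine and folate metabolism 3 rose and none fell, with a median log2 fold change of 0.32: MTHFD1L rose by 0.72 (adjusted p = 0.00231), GLDC by 1.29 (adjusted p = 0.00504) and MTR by 0.36 (adjusted p = 0.0386). At an unadjusted p under 0.05, by DESeq2 and by limma-voom, 1 gene of it was lower. Without parental replicate 3, 10 of that list rose and 4 fell. In cystine, cysteine and glutathione synthesis 2 of 17 rose and 1 fell, beside 4 and 8 without parental replicate 3. The methionine adenosyltransferase MAT2A rose by 0.91 (adjusted p = 0.00177) and the glutathione peroxidase GPX4 by 0.84 (adjusted p = 0.00993). The glutathione-cleaving GGT1 fell by 1.82 (adjusted p = 0.00703). Branched-chain and aromatic amino acid breakdown had 3 of 21 genes that fell and none that rose. Among those that fell were PPM1K, which activates branched-chain keto acid breakdown, by 1.00 (adjusted p = 0.0182) and HPD, an enzyme of tyrosine breakdown, by 1.56 (adjusted p = 0.035), beside 6 that rose and 7 that fell without parental replicate 3. With all libraries none of that list was higher at an unadjusted p under 0.05, by DESeq2 or by limma-voom. Of 20 cytosolic aminoacyl-tRNA synthetases 3 rose and none fell, IARS by 0.71 (adjusted p = 0.00371), AARS by 0.80 (adjusted p = 0.00934) and LARS by 0.46 (adjusted p = 0.0176), beside 9 and 5 without parental replicate 3. With all libraries 1 synthetase was lower at an unadjusted p under 0.05 and 1 by DESeq2, and 0 by limma-voom. The calls on CEBPB, CASTOR1, SESN3, SLC29A3, MTR, PPM1K, HPD and LARS were lost when some single library was left out, with adjusted p up to 0.164.

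**Figure D4:**
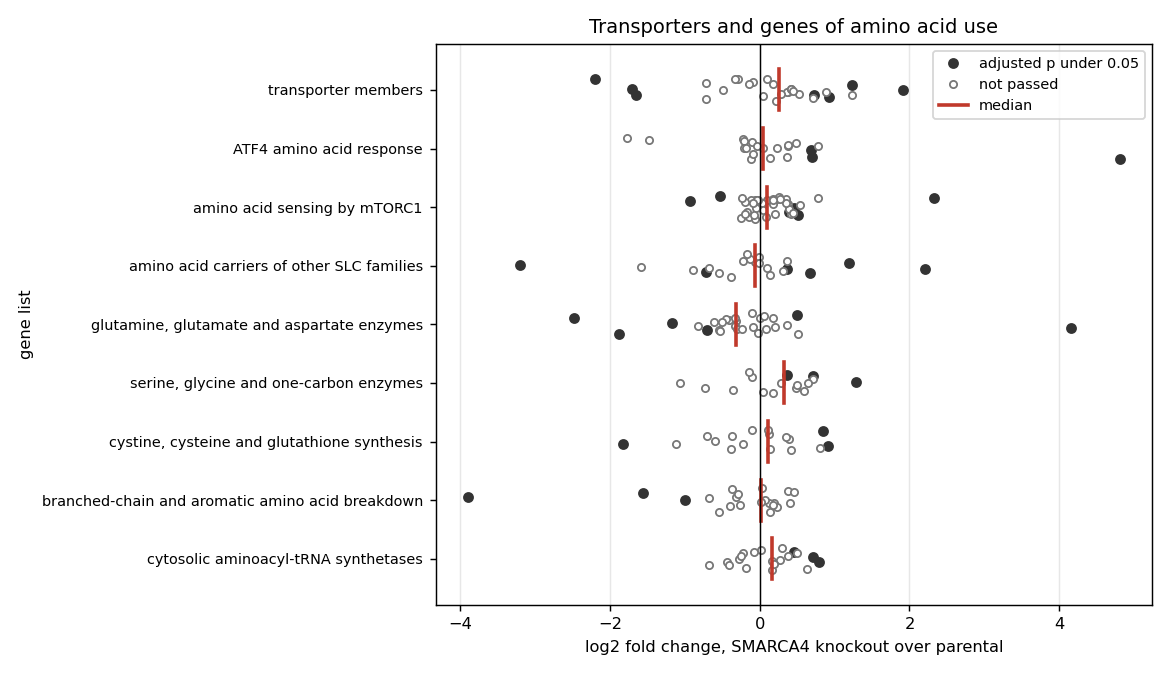
Log2 fold change of SMARCA4 knockout over parental with all 6 libraries for each tested gene of the carriers (top row) and of 8 related lists, filled where the adjusted p was under 0.05, with the median as a red bar. The carrier median lies at 0.25, and the list medians lie between -0.31 and 0.32.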

How the data were processed

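The authors deposited raw counts of reads per gene symbol, 1 table for each of 6 libraries. TopHat2 2.1.1, HTSeq 0.11.0 and the build hg38 are named per the submitters' processing notes, and the annotation release, strand setting and any read filter were not stated by those sources. Rows for unassigned reads (13.8% to 15.3% of a library) were left out. Counts were scaled by TMM, genes of low count were dropped by filterByExpr, and knockout was compared with parental by the quasi-likelihood F-test of edgeR 4.0.16 (robust, two-sided, R 4.3.3), with Benjamini-Hochberg adjustment over 17809 genes and a threshold of 0.05. The steps were checked on data with known answers. The counts simulated for the fit had capped dispersion and no outlying library, so that check does not cover the departure of parental replicate 3. A library of this depth puts 3 reads at 0.0497 to 0.0545 CPM. No replicate pair agreed within sampling noise, so all libraries were counted. Exon lengths and overlaps came from GENCODE 29 and promoter windows from RefSeq GRCh38.p14. Alternatives were DESeq2 1.42.0, limma 3.58.1 (voom), other scalings and filters, a replicate block and each library left out. The members and lists were chosen with earlier results of these data known. Genes named are SMARCA4, all members called, the 10 most abundant members, the SLC3A2 partners and glutamine carriers, and up to 3 called genes a list with the smallest adjusted p. The other tested members are given with them, untested ones by their reads, and 1 list gene is not reported here.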

Additional observations from a re-analysis of the deposited data

How the results depend on the processing

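Of 362 alternative values of the tested carriers, 322 kept direction and side of the threshold, 10 lost the call, 21 gained it and 9 changed sign. The log2 fold change of SLC38A9 turned to -0.00867 with median-ratio scaling and by DESeq2 and to -0.0222 with no low-count filter. With single libraries left out, it ranged from -0.0936 to 0.201 for SLC1A5, -0.162 to 0.156 for SLC38A9, -0.537 to 0.144 for SLC43A2, -0.186 to 0.0499 for SLC6A6, -0.226 to 0.592 for SLC6A9 and -0.399 to 0.0507 for SLC6A14, and the sign changed without parental replicate 3, or for SLC6A14 without parental replicate 1. The cause was not tested. SMARCA4 ranged from -3.72 to -3.41 with single libraries left out.

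Deviations from the group mean were compared between same-numbered knockout and parental libraries. Their correlations were -0.0487, 0 and -0.0743, and no library was closest to its own number. With 3 libraries a group, these correlations cannot settle whether the replicate numbers pair the libraries. With the replicate block, 1378 genes rose and 1662 fell, while 4 carriers rose and 2 fell. The block gave 0 rising and 1 falling gene of amino acid sensing, 1 and 1 of other amino acid carriers, 1 rising glutamine enzyme and 1 falling gene of branched-chain breakdown. Falling carriers numbered 5 with no low-count filter, 6 by DESeq2 and 0 with a filter of 1 CPM in 3 libraries, where SLC7A7 and SLC7A8 were not tested and SLC1A3 had an adjusted p of 0.0504. By DESeq2, 3 ATF4 genes, 4 of amino acid sensing, 4 other carriers, 7 glutamine enzymes, 1 serine enzyme, 2 of cystine metabolism, 5 of branched-chain breakdown and 1 synthetase fell. No low-count filter gave 1 rising gene of sensing, 2 other carriers and 1 glutamine enzyme, and 3 falling genes of cystine metabolism and 1 synthetase. Median-ratio scaling gave 2 rising other carriers and 1 falling serine enzyme, as did the 1 CPM filter and limma-voom for the serine list (1 each). Median-ratio and upper-quartile scaling shifted the median of all genes by -0.05 and 0.05. With the longest transcript as length, the knockout minus parental share was 21.3 points for SLC7A5 and -5.75 for SLC1A5. In the 150 bases nearest the start, 4 member windows (6.06%) held the E-box, beside 4.37% of all windows.

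With single libraries left out, the rising and falling counts ranged from 1221 to 5665 and 1471 to 5660 over all genes, 4 to 15 and 1 to 10 over the carriers, 2 to 5 and 0 to 13 for the ATF4 list, 0 to 19 and 1 to 9 for sensing, 1 to 9 and 1 to 7 for other carriers, 1 to 7 and 2 to 12 for glutamine enzymes, 2 to 10 and 0 to 4 for serine enzymes, 2 to 4 and 1 to 8 for cystine metabolism, 0 to 6 and 1 to 7 for branched-chain breakdown and 2 to 9 and 0 to 5 for synthetases. The highest count of each came without parental replicate 3. The share differences ranged from 24.9 to 25.7 points for SLC7A5, -7.10 to -6.62 for SLC1A5, -1.40 to -0.15 for SLC3A2 and -8.16 to -5.25 for SLC7A11, and the SLC7A5 to SLC3A2 ratio from 2.13-fold to 2.41-fold. Depth limits the 31 untested carriers, where counts of up to 14 reads could not show a change of moderate size.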
